A study of Homo sapiens with 12 samples.

Results

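TXNIP, 4 other arrestin-fold genes (ARRDC1, ARRDC2, ARRDC3 and ARRDC4), the glucose-sensing transcription factor gene MLXIP and 4 glucose transporter genes (SLC2A1, SLC2A3, SLC2A6 and SLC2A8) were followed through 4 exposures of the human ovarian epithelial line IOSE80. Each member was taken as the locus that carries its name in the deposited tables, which gave 10 loci of 30574, 1 for each name. The cells, an immortalised line, had been kept for 28 days in 0.1% DMSO, in bisphenol A (BPA, a plastics monomer with weak oestrogenic activity) at 0.25 nM or at 2500 nM, or in E2, the usual short name of estradiol. DMSO served as the control, but the labels of the other groups name no solvent and, for E2, no dose. There were 3 libraries each for DMSO and both BPA doses and 2 for E2, so 11 of the 12 labelled samples, and nothing in the labels says whether replicates were separate cultures: p-values then reflect only how far these libraries scatter, which may be technical. TXNIP and SLC2A3 were chosen by their lower FPKM against DMSO. Test results for these differences are given below, but nothing is read from them. The other 8 members were added by name, with earlier results of these data known.

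TXNIP encodes thioredoxin-interacting protein, which binds thioredoxin and, like its nearest relative ARRDC4, is known to draw glucose transporters from the cell surface. Both genes are textbook targets of MLXIP (also called MondoA), a factor that works with its partner MLX, responds to phosphorylated glucose and binds carbohydrate response elements in promoters. The system is known as a feedback loop: sugar entering through the SLC2A transporters activates MLXIP, and the products of its targets then hold back further uptake.

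Levels are FPKM, which corrects for the length of a transcript and for the size of a library, so levels of different genes can be set side by side. Tests ran on log2(FPKM + 1), a scale that understates changes of weakly expressed genes, over 12182 loci that reached an FPKM of 1 in 2 libraries or more, and all 10 members were among them. A locus was called at an adjusted p under 0.05 (limma, 1 model over all libraries, Benjamini-Hochberg). Read depth is unknown. The libraries had FPKM totals of 206719 to 213663 and 21223 to 23696 loci above 0. The median correlation of a library with the others was 0.9896 in E2 replicate 2, the lowest, and 0.9906 to 0.9917 elsewhere. Several E2 results are therefore also given without E2 replicate 2. Mitochondrial loci took 13.63% to 14.31% of FPKM in DMSO, 12.62% to 12.66% and 12.94% to 13.62% at the lower and higher BPA doses, and 14.0% and 12.26% in the E2 libraries. Of 14 markers of ovarian surface epithelium, 4 reached a mean FPKM of 1 (KRT8, KRT18, NR2F2 and ALDH1A1), while WT1, GATA4, UPK3B, BNC1, CDH1 and PAX8 stayed under 0.1 in every library.

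TXNIP (MSTRG.1171, chromosome 1, 145992435 to 145996600, minus strand, GRCh38) was highest in DMSO and lowest with BPA 2500 nM. Its FPKM was 10.05, 9.42 and 8.87 in the DMSO libraries. With BPA 0.25 nM it was 7.46, 6.18 and 6.59. With BPA 2500 nM it was 5.05, 5.44 and 4.74, and with E2 6.44 and 6.38. No treated library reached the lowest DMSO library, and the libraries of the higher BPA dose all lay below those of the lower dose and of E2. The mean was 71.4% and 53.7% of the DMSO mean at the lower and higher BPA doses and 67.9% of it in E2. On the log2 scale the differences from DMSO were -0.43 ± 0.07 (SE), -0.78 ± 0.07 and -0.49 ± 0.08, and without E2 replicate 2 the last was again -0.49. These comparisons share their DMSO libraries, so a shift in those alone would move every one of them.

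**Figure D1:**
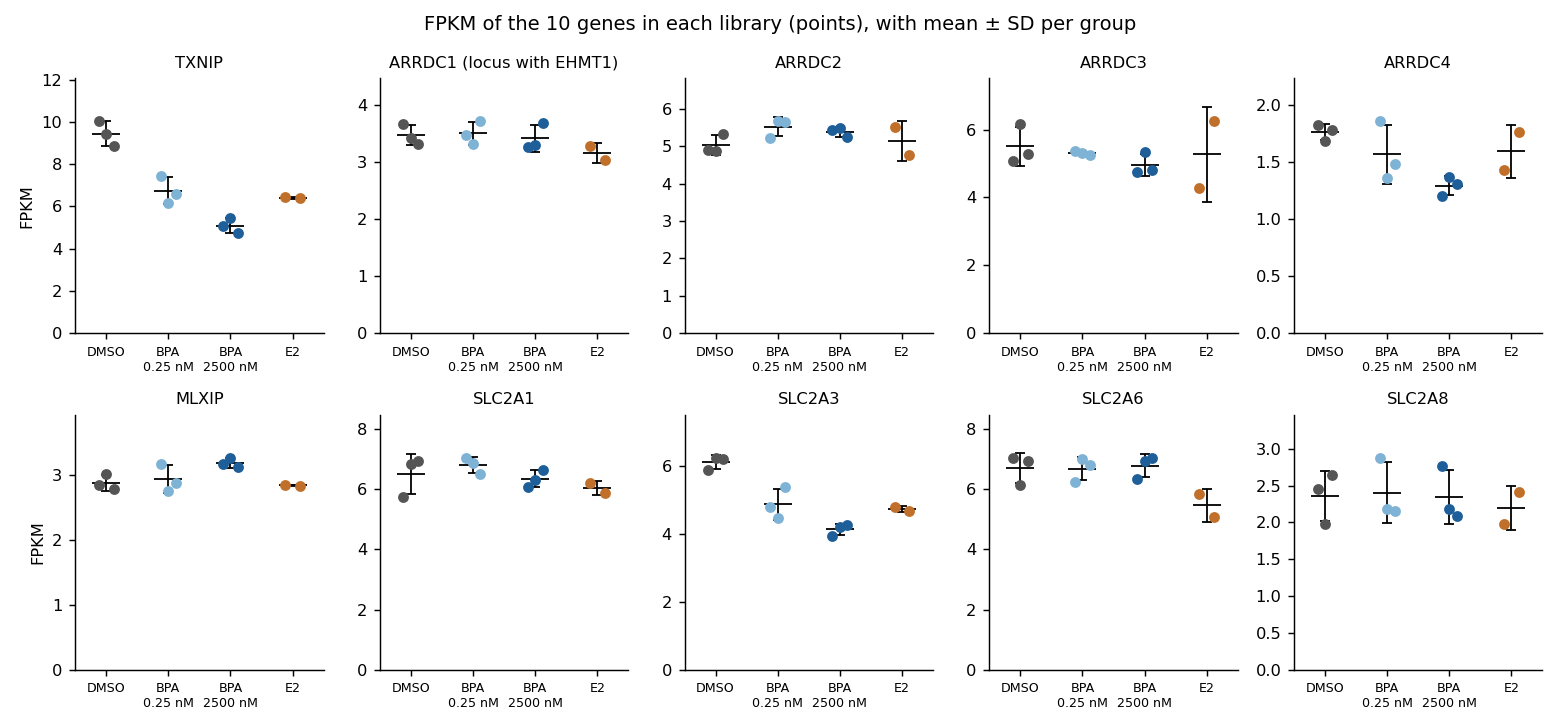
FPKM of each gene (y axis, from 0) in the DMSO, BPA 0.25 nM, BPA 2500 nM and E2 libraries (x axis). Points are libraries, the dash and bars mean ± SD (n = 3, 3, 3 and 2). TXNIP and SLC2A3 lie lower in every treated library than in any DMSO library, while ARRDC1, ARRDC2, ARRDC3, SLC2A1 and SLC2A8 overlap across most groups.

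The TXNIP promoter holds a paired element of the carbohydrate response type, and it is printed with that of ARRDC4 because these are the MLXIP targets among the members. The sequences are RefSeq's (GRCh38.p14), 5′ to 3′ on the gene's strand, ending before the first annotated transcript base. Capitals mark the tandem pair of CACGNG boxes in TXNIP and the E-box CACGTG in ARRDC4.
TXNIP, chr1:145996601-145996829, minus strand: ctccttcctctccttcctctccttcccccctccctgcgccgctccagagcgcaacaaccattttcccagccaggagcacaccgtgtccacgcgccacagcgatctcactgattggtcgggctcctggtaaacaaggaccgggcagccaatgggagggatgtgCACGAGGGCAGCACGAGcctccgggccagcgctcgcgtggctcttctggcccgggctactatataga
ARRDC4, chr15:97960453-97960697, plus strand: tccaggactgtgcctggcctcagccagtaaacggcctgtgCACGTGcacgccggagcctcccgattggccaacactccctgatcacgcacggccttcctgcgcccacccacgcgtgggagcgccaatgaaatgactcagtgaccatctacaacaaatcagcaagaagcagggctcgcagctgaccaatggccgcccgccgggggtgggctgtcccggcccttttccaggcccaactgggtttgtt
The TXNIP pair reads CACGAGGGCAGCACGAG and lies 88 to 72 bases before the RefSeq start.

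The letters CACGNG, then any 5 bases, then CACGNG again, sought on both strands and set with the TXNIP sequence in view, occurred in 20 of 35116 promoter windows of 300 bases, or 0.057%. Of the 9 members with a window only TXNIP held them. In the window nearest each locus start, the E-box CACGTG was found among the members in ARRDC4 alone, and in 7.26% of all windows. TXNIP, ARRDC2 and ARRDC3 had 2 windows, of which only the nearest was used here. The RefSeq start of SLC2A1 lay 2923 bases from its locus start. CCAAT boxes were also sought on both strands, in the same member windows. TXNIP had 2, ARRDC4 3, SLC2A8 3 and SLC2A6 2, and at least 2 occurred in 10.8% of all windows. A CACGTG can lie inside the tandem pattern. The tandem letters stood in the windows of 20 genes, 16 of them tested. Among the 15 other than TXNIP, differences between BPA 2500 nM and DMSO ran from -0.24 to 0.38, 10 were negative and 1 was called, beside 57.2% negative and 1.3% called over all loci. That gene was P4HA1, a collagen prolyl hydroxylase, at -0.24 ± 0.04 (adjusted p = 0.0331), named after its value was seen. GFPT1, the entry enzyme of the hexosamine pathway, was also among them, at -0.19 ± 0.11.

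ARRDC4 (ENSG00000140450, chromosome 15, 97960703 to 97973833, plus strand), the closest relative of TXNIP in function, was the lowest of the 10 genes. Its FPKM was 1.82, 1.68 and 1.78 in DMSO and 1.86, 1.36 and 1.48 with BPA 0.25 nM. It was 1.20, 1.37 and 1.31 with BPA 2500 nM, and 1.43 and 1.76 with E2. Only the libraries of BPA 2500 nM lay wholly below those of DMSO; the other groups overlapped them. The log2 difference of BPA 2500 nM from DMSO was -0.27 ± 0.08 (adjusted p = 0.154, limma), which did not pass. With BPA 0.25 nM it was -0.11 ± 0.08 (adjusted p = 0.743) and with E2 -0.09 ± 0.09 (adjusted p = 0.702; -0.18 without E2 replicate 2).

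MLXIP (ENSG00000175727, chromosome 12, 122078756 to 122147344, plus strand), the upstream factor, stood slightly above its DMSO range with BPA 2500 nM. Its FPKM was 2.85, 3.01 and 2.78 in DMSO, 3.17, 2.76 and 2.88 at the lower BPA dose, 3.17, 3.27 and 3.12 at the higher dose, and 2.85 and 2.83 in E2. The difference of BPA 2500 nM from DMSO was 0.11 ± 0.05 on the log2 scale (adjusted p = 0.33), opposite in sign to that of TXNIP, and it did not pass.

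The remaining arrestin relatives varied little between groups. ARRDC2 (MSTRG.9719, chromosome 19, 18001132 to 18014102, plus strand) and ARRDC3 (MSTRG.14949, chromosome 5, 91368631 to 91383317, minus strand) encode adaptors that link membrane receptors to NEDD4-family ubiquitin ligases. ARRDC2 ranged from 4.76 to 5.68 FPKM over the libraries, with differences from DMSO of 0.11 ± 0.06 and 0.08 ± 0.06 at the lower and higher BPA doses and 0.02 ± 0.07 in E2. ARRDC3 was uneven within E2, at 4.28 and 6.26 FPKM, a span wider than that over all other libraries (4.74 to 6.16). Its difference between E2 and DMSO, -0.07 ± 0.12, was -0.30 without E2 replicate 2 and 0.16 without E2 replicate 1. ARRDC1, which encodes an adaptor of vesicle budding at the plasma membrane, was measured only in a locus joined with the histone methyltransferase gene EHMT1 (MSTRG.18603, chromosome 9, 137605685 to 137870016, plus strand), and an antisense gene, ARRDC1-AS1, lies opposite it at 5.93 ± 1.19 FPKM in DMSO (SD, n = 3). The labels do not say whether the libraries kept strand, so the ARRDC1 values, 3.03 to 3.72 FPKM, are uncertain.

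Among the 4 arrestin genes with loci of their own, TXNIP had the highest mean in DMSO, BPA 0.25 nM and E2, and ARRDC2 with BPA 2500 nM. TXNIP made up 43.4 ± 2.29% of the summed FPKM of TXNIP, ARRDC2, ARRDC3 and ARRDC4 in DMSO (SD, n = 3). Its share was 35.2 ± 2.08% and 30.3 ± 0.78% at the lower and higher BPA doses and 34.9 ± 2.24% in E2 (n = 2). The sum itself was 21.8 ± 0.44, 19.1 ± 0.71, 16.7 ± 0.81 and 18.4 ± 1.06 FPKM in the same order, so most of its loss was that of TXNIP. In DMSO TXNIP was the highest of the 4 in each library; with BPA 2500 nM its mean of 5.08 FPKM lay between those of ARRDC2 (5.39) and ARRDC3 (4.96). TXN, the thioredoxin gene, stood at 168 ± 6.75 FPKM in DMSO and 173 ± 5.58 with BPA 2500 nM. The ratio of TXN to TXNIP was 17.9 ± 1.15 in DMSO, 27.2 ± 2.25 and 34.2 ± 2.32 at the lower and higher BPA doses, and 28.8 ± 1.40 with E2. These shares and ratios carry the TXNIP values that led to its choice and are descriptions.

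**Figure D2:**
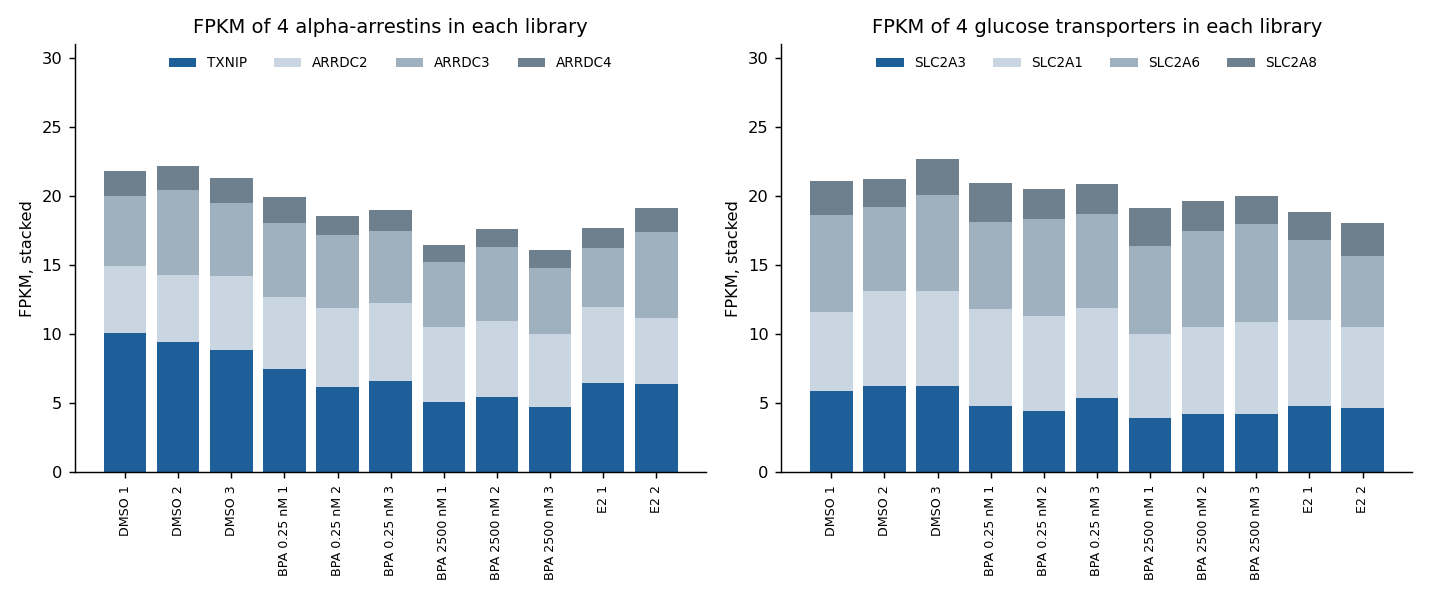
Stacked FPKM (y axis, from 0) of 4 arrestin genes and 4 glucose transporter genes in each library (x axis, 1 bar per library). The TXNIP segment shrinks from 8.87 to 10.05 FPKM in DMSO to 4.74 to 5.44 with BPA 2500 nM while the other arrestin segments change less, and among transporters the SLC2A3 segment shrinks most.

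SLC2A3 (MSTRG.3875, chromosome 12, 7919230 to 7936187, minus strand), which encodes GLUT3, a transporter with high affinity for glucose, followed the order of TXNIP. Its FPKM was 5.87, 6.25 and 6.21 in DMSO and 4.79, 4.47 and 5.37 with BPA 0.25 nM. At the higher dose it was 3.95, 4.20 and 4.25, and in the E2 libraries 4.79 and 4.67. All treated libraries lay below all DMSO libraries, and those of the higher BPA dose below those of the lower. The mean was 79.8%, 67.6% and 77.4% of the DMSO mean in the same order of treatments, and the log2 differences were -0.28 ± 0.06, -0.47 ± 0.06 and -0.31 ± 0.07 (-0.30 without E2 replicate 2). SLC2A14, a near-identical copy whose reads could be mistaken for those of SLC2A3, never exceeded 0.05 FPKM. Whether any of its reads were counted under SLC2A3 was not tested.

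SLC2A1 (MSTRG.589, chromosome 1, 42925375 to 42961791, minus strand, joined with the clone gene AC099795) encodes GLUT1, the basal transporter of most cells, and it showed no such order. Its FPKM was 5.73, 6.84 and 6.92 in DMSO, 7.05, 6.86 and 6.50 at the lower BPA dose, 6.08, 6.31 and 6.64 at the higher dose, and 6.20 and 5.88 in E2. Both BPA groups and E2 overlapped DMSO. The differences from DMSO were 0.06 ± 0.07, -0.03 ± 0.07 and -0.09 ± 0.08 for BPA 0.25 nM, BPA 2500 nM and E2, with adjusted p from 0.65 to 0.876. The ratio of SLC2A1 to SLC2A3 was 1.06 ± 0.08 in DMSO (SD), 1.41 ± 0.17 and 1.54 ± 0.03 at the lower and higher BPA doses, and 1.28 ± 0.03 with E2, so transcripts of both transporters were nearest to equal in DMSO.

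SLC2A6 (MSTRG.18538, chromosome 9, 133471094 to 133479127, minus strand), which encodes the lysosomal transporter GLUT6, was low with E2 and not with BPA. Its FPKM was 7.03, 6.14 and 6.93 in DMSO, 6.24, 6.99 and 6.81 at the lower BPA dose, 6.35, 6.94 and 7.05 at the higher dose, and 5.85 and 5.07 in E2. Both E2 libraries lay below every other library. In the single comparisons, 16.2% of tested loci lay wholly lower in E2 than in DMSO. Against BPA 0.25 nM and BPA 2500 nM 16.9% and 10.3% did, and the share below all groups at once was not counted. The SLC2A6 difference of E2 from DMSO was -0.25 ± 0.08 (adjusted p = 0.176) and from BPA 2500 nM -0.27 ± 0.08 (adjusted p = 0.537), neither past the threshold. Without E2 replicate 2, the lower library, they were -0.17 and -0.18. SLC2A8 (ENSG00000136856, chromosome 9, 127397138 to 127407898, plus strand), which encodes the intracellular transporter GLUT8, ranged from 1.98 to 2.88 FPKM and overlapped in every comparison.

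The 4 transporter members held 92.1 ± 0.90% of the FPKM summed over 12 SLC2A loci in DMSO (SD, n = 3), that of SLC2A1 with its joined clone gene included. That sum was 23.5 ± 0.87 FPKM in DMSO, 22.1 ± 0.12 and 20.9 ± 0.59 at the lower and higher BPA doses, and 19.9 ± 0.29 in E2. SLC2A3 took 26.0 ± 0.76% of it in DMSO, 22.1 ± 2.04% and 19.8 ± 0.37% at these doses, and 23.8 ± 0.08% in E2. SLC2A11 shares its locus with the cytokine gene MIF and is not in the sum.

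Of the 10 members 0 were called with BPA 0.25 nM against DMSO, where 0.0164% of all tested loci were. With BPA 2500 nM 2 were called, TXNIP and SLC2A3, both lower, against 1.3% of all loci in either direction and 0.895% lower. With E2 1 was, TXNIP, lower, against 0.419% and 0.254%. The SLC2A3 call did not hold without BPA 2500 nM replicate 1 or 2, and the E2 call of TXNIP held in none of the 11 fits that left out 1 library. Of all called loci 49 were higher and 109 lower with BPA 2500 nM, and after rescaling by the median of ratios 67 and 78. Nothing is read from these counts, since the calls were known when the members were chosen. Among the other 8 members none passed in any of the 3 comparisons, with lowest adjusted p of 0.622, 0.154 and 0.176. The median difference over the 10 members was 0.004, -0.022 and -0.089 for BPA 0.25 nM, BPA 2500 nM and E2, beside 0.001, -0.027 and -0.007 over all loci. Differences were negative for 5, 7 and 9 of the 10 members in that order, and for 49.7%, 57.2% and 51.9% of all loci. All treated libraries lay below all DMSO libraries for 2 members, TXNIP and SLC2A3, as for 3.03% of tested loci. With BPA 0.25 nM alone these 2 lay wholly below DMSO, as did 8.05% of loci. With BPA 2500 nM 3 members did (TXNIP, SLC2A3 and ARRDC4), as did 17.1% of loci, and MLXIP lay wholly above, as did 9.54%. With E2 4 did (TXNIP, SLC2A3, SLC2A6 and ARRDC1), as did 16.2%. TXNIP and SLC2A3, chosen by low values against DMSO, enter these medians, signs and overlap counts, so nothing is read from those either.

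**Figure D3:**
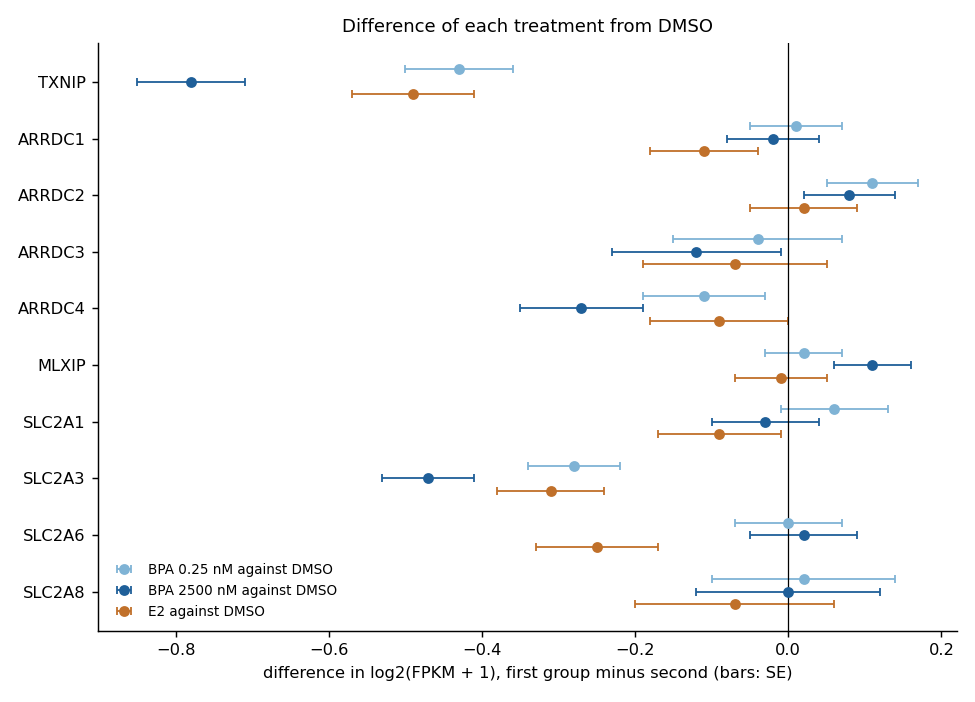
Difference of each treatment from DMSO in log2(FPKM + 1) (x axis; points, with SE bars) for the 10 genes (y axis). TXNIP (-0.43, -0.78 and -0.49) and SLC2A3 (-0.28, -0.47 and -0.31) lie left of 0 in all 3 treatments, and most other genes lie near 0.

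Some marker genes moved with the BPA 2500 nM group as well. The summed FPKM of 8 fibroblast markers was 29.98 to 30.56 there and 37.43 to 39.54 in DMSO, with COL1A2, DCN and LUM under 0.1 throughout. COL3A1, a fibrillar collagen gene, carried that difference (31.3 ± 0.89 FPKM in DMSO, 23.4 ± 0.40 with BPA 2500 nM, -0.40 ± 0.05, adjusted p = 0.00591), while THY1 (-0.12 ± 0.10, adjusted p = 0.584) and the PDGFRA locus, joined with FIP1L1 (0 ± 0.05, adjusted p = 0.995), were not called. The sum of the 14 ovarian surface markers was 121.76 to 127.33 against 134.32 to 150.65, mostly through the retinal dehydrogenase gene ALDH1A1 (116 ± 6.02 FPKM in DMSO, 97.6 ± 3.18 with BPA 2500 nM, adjusted p = 0.048). KRT8, KRT18 and NR2F2 were not called (adjusted p from 0.525 to 0.854). The leukocyte sum overlapped (43.19 to 45.80 against 43.09 to 49.60), nearly all of it a locus that joins CD68 with SENP3 and EIF4A1, so it cannot be credited to CD68, with PTPRC under 0.1. CDH5, the one endothelial marker with a locus, was at most 0.01. The granulosa sum overlapped too (9.08 to 9.31 against 8.34 to 10.31). FOXL2 (mean 6.92 FPKM in DMSO) and INHA (1.52) reached a mean FPKM of 1, while CYP19A1 stayed under 0.1 in every library. The part of these shifts, or of the mitochondrial share, in the lower TXNIP and SLC2A3 values was not tested, and in bulk RNA fewer cells of a kind and less RNA per cell cannot be told apart.

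The treatments were then compared with each other. These comparisons did not serve to choose the members, but they use the same treated libraries. TXNIP and SLC2A3 were chosen by low values in those libraries, so their differences here are not free of that choice. Against BPA 0.25 nM, BPA 2500 nM had less TXNIP by -0.35 on the log2 scale (SE 0.07, 95% interval -0.51 to -0.18), 75.3% of the lower dose's mean. That difference did not pass over all loci (adjusted p = 0.257). SLC2A3 differed by -0.19 ± 0.06 (interval -0.33 to -0.05, adjusted p = 0.504). Both genes were lower in 3 of 3 libraries with no overlap between the doses, as were 12% of tested loci. None of the 10 members was called, and 0.0657% of all loci were (2 higher and 6 lower, or 3 and 4 after rescaling); 2 members had an unadjusted p under 0.05, as had 7.81% of loci.

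TXNIP in E2 lay close to its level at the lower BPA dose, with a difference of -0.06 ± 0.08 (interval -0.24 to 0.12, adjusted p = 0.787). Without E2 replicate 2 it was -0.05. SLC2A3 differed by -0.03 ± 0.07 (interval -0.19 to 0.12, adjusted p = 0.863). Against BPA 2500 nM, E2 stood higher in TXNIP by 0.29 ± 0.08 (interval 0.10 to 0.47, adjusted p = 0.537) and in SLC2A3 by 0.16 ± 0.07 (adjusted p = 0.547), with no overlap for either, as for 13.4% of loci in that direction. ARRDC4 was the third member wholly higher in E2, and MLXIP and SLC2A6 lay wholly lower, as did 10.3% of loci. Against BPA 0.25 nM, ARRDC1, SLC2A1 and SLC2A6 lay wholly lower in E2, as did 16.9%. The order of the TXNIP means was thus DMSO, BPA 0.25 nM, E2 and BPA 2500 nM, and the middle neighbours did not differ beyond their spread. None of the members was called in either E2 comparison, with 0.0493% of all loci called against BPA 0.25 nM and 0.041% against BPA 2500 nM. At an unadjusted p under 0.05 there were 1 and 3, beside 12.6% and 9.01% of loci.

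**Figure D4:**
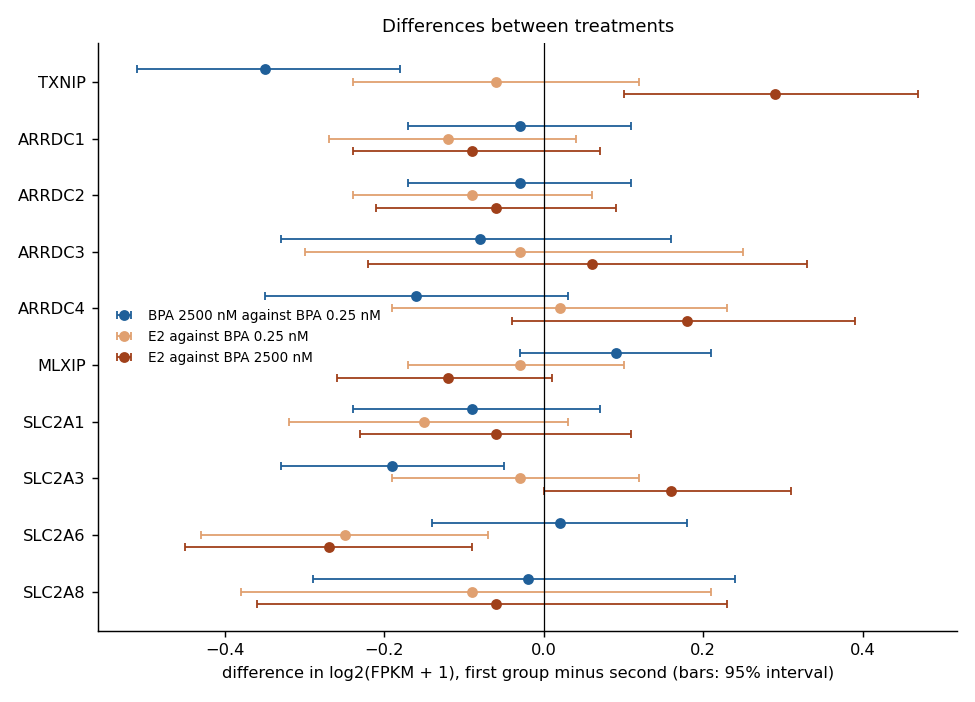
Differences between treatments in log2(FPKM + 1) (x axis; points with 95% intervals) for the 10 genes (y axis). The TXNIP intervals for BPA 2500 nM against BPA 0.25 nM (-0.51 to -0.18) and E2 against BPA 2500 nM (0.10 to 0.47) lie off 0, while that for E2 against BPA 0.25 nM spans it. The intervals are not adjusted for the number of loci, and none of these differences was called.

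Over the 11 libraries SLC2A3 and ARRDC4 tracked TXNIP among the members. Pearson's r with TXNIP on the log2 scale was 0.925 for SLC2A3, which placed it 24th of 12182 loci with TXNIP itself first, and 0.824 for ARRDC4, 218th. It was -0.45 for MLXIP and -0.48 for ARRDC2, and 0.078 for SLC2A1. Outside the members, the single-gene loci most like TXNIP were MLLT11 (r = 0.97), GBP2 (0.97), EFHD1 (0.967), PPP3CA (0.961) and the non-coding LINC02438 (0.959). MLLT11, first known as a partner in leukaemia fusions, went from 21.2 ± 1.41 FPKM in DMSO to 17.7 ± 0.73, 15.2 ± 0.37 and 17.9 ± 0.44 with BPA 0.25 nM, BPA 2500 nM and E2. GBP2, an interferon-induced GTPase gene, went from 5.93 ± 0.04 to 4.94 ± 0.05, 4.07 ± 0.18 and 4.56 ± 0.04. EFHD1, an EF-hand calcium-binding protein gene, went from 4.64 ± 0.09 to 3.79 ± 0.05, 3.27 ± 0.22 and 3.59 ± 0.13. These correlations are descriptions, since the libraries fall into 4 exposure groups and the genes share every library. TXNIP and SLC2A3 were also both chosen by lower FPKM against DMSO in these libraries. The r and rank of SLC2A3 therefore partly follow from that choice.

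The wider pathway was taken from 8 lists of 76 genes, of which 70 had a locus and 54 were tested. Against DMSO, 1 of the 54 genes was called with BPA 2500 nM and 0 in the other treatments, beside 1.3% of all loci at that dose, and 0.0164% (lower dose) and 0.419% (E2) in the others. The single call was WWP1, a NEDD4-family ubiquitin ligase gene, at 8.28 ± 0.12 FPKM in DMSO and 6.80 ± 0.23 with BPA 2500 nM (-0.25 ± 0.05, adjusted p = 0.0476). It fell short of the threshold in 9 of 11 fits without 1 library (all but those without an E2 library, highest adjusted p 0.147) and after rescaling. Of the 6 ligases tested 5 were negative with BPA 2500 nM, and the list's median was -0.13, beside 57.2% negative and a median of -0.027 over all loci.

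Genes next to MLXIP gave no call. MLX, its partner, stood at 19.5 ± 0.97 FPKM in DMSO and 21.8 ± 0.66 with BPA 2500 nM. MLXIPL, the ChREBP gene and liver counterpart of MLXIP, was low, at 1.29 ± 0.06 FPKM in DMSO and 0.79 ± 0.01 with E2 (-0.36 ± 0.09, adjusted p = 0.0862). In the list of MLX and MAX partners 0 of 10 tested genes were called in any of the 3 comparisons with DMSO. Of 6 other glucose-responsive genes none was called, with medians of -0.019, 0.033 and 0.004. Among them LDHA stood at 189 ± 13.3 FPKM in DMSO and 202 ± 6.90 with BPA 2500 nM, HK2 at 9.51 ± 0.22 and 8.77 ± 0.27, and KLF10 at 7.05 ± 0.61 and 7.23 ± 2.14.

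None of the 12 genes of the thioredoxin system was called. Their differences were positive for 12, 9 and 10 genes for BPA 0.25 nM, BPA 2500 nM and E2, beside 50.3%, 42.8% and 48.1% of all loci, with medians of 0.09, 0.082 and 0.128 and several at about 0. SRXN1, whose enzyme repairs oxidised peroxiredoxins and whose locus is joined with a clone gene, came nearest with BPA 2500 nM, at 21.3 ± 0.34 against 18.4 ± 0.76 FPKM (adjusted p = 0.0523). For the 10 tested genes of glucose phosphorylation and upper glycolysis the medians were -0.024, -0.077 and -0.091, with 0 called. The 6 AMPK-related genes, whose kinase phosphorylates TXNIP protein, had medians of -0.023, -0.052 and -0.035 and 0 calls. The beta-arrestin genes ARRB1 and ARRB2 were tested for the list of other arrestins, and neither was called. ARRB2 stood at 7.66 ± 0.34 FPKM in DMSO and 9.09 ± 0.63 with BPA 2500 nM.

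**Figure D5:**
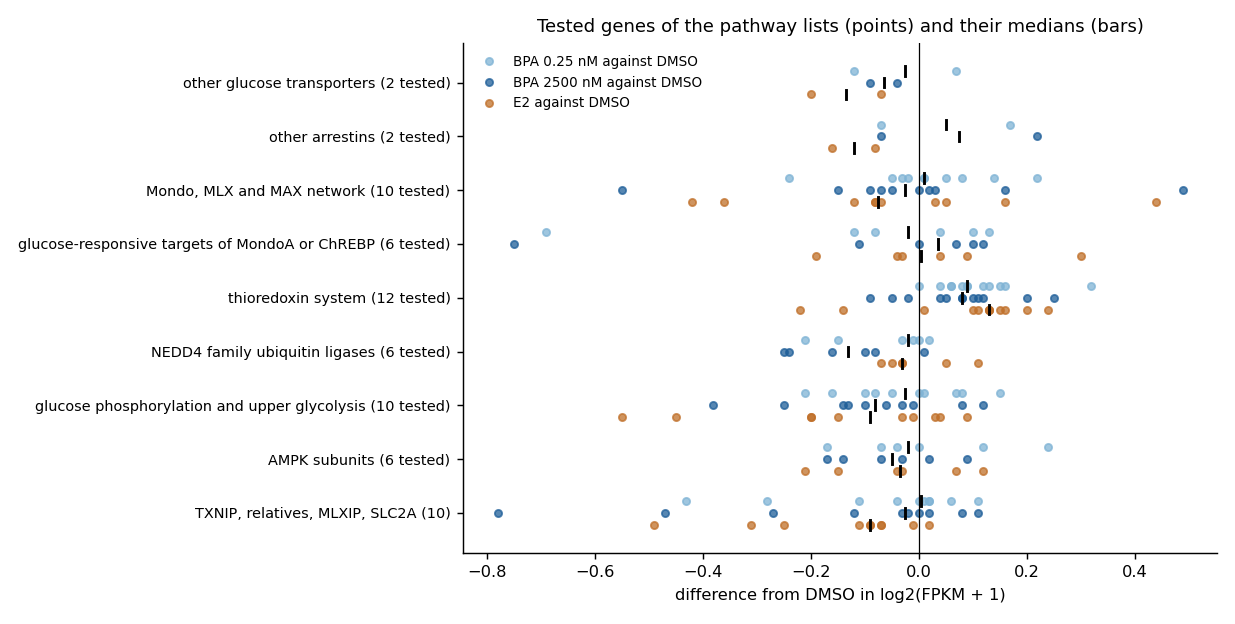
Difference from DMSO in log2(FPKM + 1) (x axis) of the tested genes of each list (y axis; points are genes, coloured by treatment, bars are medians, and the bottom row holds the 10 members). The medians of the thioredoxin system are 0.09, 0.082 and 0.128, and most list genes lie near 0.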

How the data were processed

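RNA of IOSE80 cells was sequenced (Illumina NovaSeq) after Trizol extraction, per the labels' protocols. The values deposited by the authors are FPKM, 1 per locus and library, rounded to 2 decimals. The submitters' processing notes name StringTie, HISAT, edgeR and UMI-tools without versions or roles. Those notes name hg19, but 74.8% of 14123 Ensembl loci have the GENCODE 29 (GRCh38) start and end, so GRCh38 positions are given. FPKM values are not counts and read depth is unknown, so precision rests on the spread between libraries. E2 replicate 3 was not analysed here.

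Groups were compared pairwise (6 comparisons) with limma 3.58.1 in R 4.3.3 on log2(FPKM + 1), with trend and robust variance settings and 7 residual degrees of freedom, two-sided. The code was tested on simulated data. Alternatives changed the pseudocount, filter, scaling, libraries, variance model and replicate block. Plots used matplotlib 3.10.9 under Python 3.11.15.

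The members and lists were chosen with earlier results of these data known. By rule, named genes were the members, the 5 single-gene loci with the highest r with TXNIP, and list genes that were called or among the 4 highest of a list. MLXIPL, SRXN1, KLF10, GFPT1 and P4HA1 were named after their values were seen. RefSeq promoter windows (250 bases before to 50 after a start) matched 9 of the 10 members.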

Additional observations from a re-analysis of the deposited data

How the results depend on the processing

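Leaving out each library in turn gave 0 to 9, 32 to 251, 7 to 189, 2 to 10, 2 to 212 and 4 to 56 called loci, against 2, 158, 51, 8, 6 and 5, for BPA 0.25 nM, BPA 2500 nM and E2 against DMSO, BPA 2500 nM against BPA 0.25 nM, and E2 against BPA 0.25 nM and BPA 2500 nM. Members called were 1 to 2 of 10 for BPA 2500 nM and 0 to 0 for E2 against DMSO, and 0 in the other comparisons. For BPA 2500 nM TXNIP kept its call in all 11 fits (-0.82 to -0.74), and SLC2A3 lost it without BPA 2500 nM replicate 1 (adjusted p 0.0625) or 2 (0.05). The E2 call of TXNIP was lost in all 11 (-0.53 to -0.45, adjusted p up to 0.141). With 1 E2 library left, it is assumed to vary like the other groups. Nothing is read from how the calls of TXNIP and SLC2A3 held, since both genes were chosen by their values against DMSO.

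With no filter on low values 39 loci were called for BPA 2500 nM and 33 for E2 against DMSO (0 members), 23 for E2 against BPA 0.25 nM and 19 against BPA 2500 nM. At a mean FPKM of at least 5 there were 0 for BPA 0.25 nM and 102 for BPA 2500 nM against DMSO, with 1 member, since SLC2A3 is then not tested. Rescaling gave 1 for BPA 0.25 nM. With only the groups compared the counts were 9, 13 and 2 against DMSO (members 1 for BPA 2500 nM, TXNIP, and 0 for E2), 3 between BPA doses and 3 for E2 against BPA 2500 nM. Without trend or robust settings there were 1 for BPA 0.25 nM against DMSO, 3 between doses and 0 members for E2 against DMSO. Without E2 libraries in the fit, chosen after seeing the data, 251 loci were called for BPA 2500 nM against DMSO and 2 between doses.

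Replicate numbers are shared across groups but did not pair libraries: 1 of 15 same-numbered pairs had correlated deviations above 0.1 (-0.117 to 0.164), and a library correlated best with its own number in 8 of 30 cases. With a replicate block, calls were 1, 38 and 5 against DMSO (0 members for E2), 3 between doses and 3 for E2 against BPA 0.25 nM.

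Differences near 0 changed sign in fits without 1 library. For BPA 0.25 nM against DMSO these were SLC2A1 (-0.01 to 0.10), SLC2A6 (-0.06 to 0.04), ARRDC3 (-0.09 to 0.03), SLC2A8 (-0.08 to 0.08), ARRDC1 (-0.02 to 0.04) and MLXIP (-0.02 to 0.05). For BPA 2500 nM against DMSO these were ARRDC1 (-0.06 to 0.01), SLC2A8 (-0.09 to 0.06), SLC2A1 (-0.10 to 0.02) and SLC2A6 (-0.04 to 0.06). For E2 against DMSO these were ARRDC3 (-0.30 to 0.16), MLXIP (-0.03 to 0.01), ARRDC2 (-0.07 to 0.11), ARRDC4 (-0.18 to 0) and SLC2A8 (-0.17 to 0.03). For BPA 2500 nM against BPA 0.25 nM these were SLC2A6 (-0.02 to 0.06), SLC2A8 (-0.11 to 0.07) and ARRDC1 (-0.07 to 0.01). For E2 against BPA 0.25 nM these were TXNIP (-0.11 to 0.01), MLXIP (-0.07 to 0.01), SLC2A8 (-0.18 to 0.01), ARRDC4 (-0.07 to 0.11), SLC2A3 (-0.08 to 0.03) and ARRDC3 (-0.26 to 0.20). For E2 against BPA 2500 nM these were SLC2A8 (-0.16 to 0.03), ARRDC2 (-0.15 to 0.03) and ARRDC3 (-0.17 to 0.29). ARRDC2 for E2 against BPA 0.25 nM reached 0 (-0.18 to 0). Rescaling turned ARRDC1 (0) and SLC2A8 (0.01) for BPA 2500 nM against DMSO and SLC2A8 (0) between doses. The cause of these changes was not tested.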

Other observations

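Genes named here were picked after their values were seen. SLC2A12, a glucose transporter too low to be tested, stood at 0.50 to 0.58 FPKM in DMSO and 0.26 to 0.32 in E2. It stood at 0.21 to 0.34 and 0.19 to 0.38 at the lower and higher BPA doses. All treated libraries lay below all DMSO libraries, as for 3.03% of the tested loci, a share that leaves out loci as low as this one. MXI1, a MAX partner that competes with MYC, stood at 1.36 ± 0.10 FPKM in DMSO, 0.63 ± 0.27 with BPA 2500 nM and 0.77 ± 0.08 with E2 (SD); its difference for BPA 2500 nM, -0.55 ± 0.13 (SE), had a limma adjusted p of 0.0799. MYC stood at 2.67 ± 0.81, 4.08 ± 0.19 and 3.91 ± 0.49 FPKM in the same order (adjusted p = 0.176 for BPA 2500 nM).

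In upper glycolysis PFKFB4, a locus joined with UCN2 whose enzyme sets fructose 2,6-bisphosphate, stood at 3.75 ± 0.41 FPKM in DMSO, 3.10 ± 0.07 and 2.65 ± 0.32 at the lower and higher BPA doses, and 2.46 in both E2 libraries (adjusted p = 0.054 and 0.066 for the last 2). The aldolase gene ALDOC stood at 27.6 ± 1.61 FPKM in DMSO and 18.7 ± 2.94 with E2 (adjusted p = 0.0695). PFKFB3 was uneven in DMSO, at 3.21 to 8.90 FPKM, and in E2, at 3.21 and 8.12, and even in the BPA groups, at 3.16 to 3.54 and 3.03 to 3.39. Its differences from DMSO were -0.69 ± 0.33 and -0.75 ± 0.33 at the lower and higher dose (adjusted p = 0.568 and 0.287).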
